A study of Mus musculus with 70 samples.

Results

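T cells of mice that kept normal social behaviour after chronic social defeat stress (CSDS), termed resilient (RES), were compared with T cells of unstressed control (CON) mice. The libraries were those labelled as T cells with the condition RES or CON, which gave 11 of the 70 libraries of the series, 6 of CON and 5 of RES. A further library labelled RES T cells, number 70, was left out because it carried B cell markers in place of T cell markers. The study asked how leukocytes in the circulation of mice respond to social stress. Male C57BL/6J mice aged 7 to 8 weeks met an aggressive CD-1 mouse daily for 10 days and otherwise lived beside it behind a partition, and a stressed mouse counted as RES at a social interaction (SI) ratio of at least 1 and as susceptible (SUS) below it. CON mice were housed in pairs across a partition without defeat, and the labels give no drug and no altered genotype for any group. The SI ratio divides the time spent near a caged unfamiliar mouse by the time spent there when the cage is empty, so that RES and SUS mice had the same stress and were separated by behaviour alone. Trunk blood was lysed of red cells, T cells were sorted on CD90.2 away from B220+ B cells and CD11b+ myeloid cells, and RNA was read as stranded total RNA libraries made for very small inputs. Although brain is the source named in the labels, the design text and the methods describe blood, which was followed here. Since the labels name no mouse, p-values measure the spread between libraries, each of which may stand for 1 mouse or for several.

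T cells recognise antigen through a receptor of variable chains held in the membrane by the CD3 chains, and Lck is the kinase that starts the signal. Most T cells in blood are naive CD4+ or CD8+ cells that do not divide, with smaller numbers of effector and memory cells and of Foxp3+ regulatory T cells. Stress reaches these cells mainly through glucocorticoids, which act on the receptor encoded by Nr3c1, and through noradrenaline, which raises cyclic AMP in the cell. Glucocorticoids are known to drive lymphocytes from blood to tissue and to induce genes such as Fkbp5, Tsc22d3 and Per1.

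The labelled cell type was checked first. Levels are CPM, that is counts scaled to a common library total. Cd3e, a chain of the receptor complex, was at 335 to 536 CPM in CON and 397 to 543 CPM in RES libraries, and Cd3g, another chain, at 461 to 725 and 418 to 669 CPM. Lck was at 416 to 599.9 CPM in CON and 419 to 564 CPM in RES libraries. In contrast, library 70 had 0.109 CPM of Cd3e and 1079 CPM of Cd79a, a chain of the B cell receptor, which was at 3.09 to 6.81 CPM in the 5 RES libraries used. The 11 libraries held 27257572 to 45668003 counts on genes, and the total, the mitochondrial share, the share of the ribosomal RNA-like genes Gm23935 and Gm26917 (4.75% to 34.2%) and the number of genes seen differed between RES and CON with exact two-sided permutation p-values of 0.31 to 0.987, where 0.00433 was the smallest p possible. Every pair of libraries within a group differed by more than sampling noise.

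No gene passed the test between RES and CON mice. Among 18860 genes tested with edgeR's quasi-likelihood test, 0 (0%) had an adjusted p under 0.05, with or without an absolute log2 fold change above 1. At an unadjusted p under 0.05 there were 775 genes (4.11%), of which 452 (2.4%) were on the higher side and 323 (1.71%) on the lower side in RES mice. DESeq2 called 17 genes under the same thresholds, 9 higher and 8 lower, out of 1295 at an unadjusted p under 0.05, and edgeR fitted to the CON and RES libraries alone called 4, all higher. By the adjusted p alone, that edgeR fit had 6 genes under 0.05, Mki67, Nav2, Neb, Rora, Socs3 and Top2a. DESeq2 had 25, among them E2f2, Ly6a, Capg, Nav2, Lgals1 and Ppargc1b. The values below are therefore given as measured levels, and the normalized CPM of named genes use TMM factors. RES values follow the order of library numbers 55, 58, 61, 64 and 67.

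The gene with the smallest p was Neb, which encodes nebulin, a giant actin-binding protein best known from skeletal muscle (chromosome 2, 52136647 to 52378474, minus strand, GRCm38). Neb was at 15.3 to 26.2 CPM (median 19.1) in the 6 CON libraries and at 45.0, 68.2, 46.9, 45.4 and 59.1 CPM in the RES libraries. Its log2 fold change was 1.43 (standard error 0.24), with an adjusted p of 0.132 from edgeR's quasi-likelihood test. Every RES library lay above every CON library, a pattern found for 70 of the genes tested (0.371%), while 46 (0.244%) had every RES library below every CON library.

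E2f2 encodes an E2F transcription factor that acts on genes of DNA replication and is also known to restrain T cell proliferation (chromosome 4, 136172394 to 136196057, plus strand). E2f2 was at 16.7 to 27.6 CPM (median 19.6) in CON and at 29.9, 28.9, 51.5, 33.1 and 44.8 CPM in RES libraries. The log2 fold change was 0.88 (standard error 0.17) and the adjusted p 0.132. Ly6a, which encodes the surface protein Sca-1 found on activated T cells and induced by interferon (chromosome 15, 74994877 to 74998031, minus strand), was at 13.9 to 23.4 CPM (median 19.3) in CON and 29.2, 40.7, 47.7, 26.9 and 31.8 CPM in RES libraries. For both genes the RES and CON libraries did not overlap, and Ly6a had a log2 fold change of 0.89 (standard error 0.18) with an adjusted p of 0.246.

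Capg, encoding an actin-capping protein that is high in regulatory and effector cells, was at 12.6 to 26.4 CPM (median 17.7) in CON and 31.7, 28.9, 39.8, 28.1 and 34.2 CPM in RES libraries. Nav2, of the neuron navigator family, was at 15.7 to 19.6 CPM (median 16.0) in CON and 28.6, 32.6, 29.6, 25.9 and 41.6 CPM in RES libraries. Their log2 fold changes were 0.83 (standard error 0.18) and 0.93 (standard error 0.20), both with an adjusted p of 0.318. B4galnt4, a glycosyltransferase gene, had a log2 fold change of 1.42 (standard error 0.33), with 9.49, 9.05, 10.9, 10.8 and 10.6 CPM in RES against at most 6.54 CPM in CON libraries. Jak3, the kinase of the common γ chain cytokine receptors, was at 73.2 to 95.8 CPM (median 85.1) in CON and 109.6, 96.4, 117, 112 and 145 CPM in RES libraries, a log2 fold change of 0.45 (standard error 0.12). None of these 4 genes passed the test, although their groups did not overlap, which the rule that chose them required.

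The genes that DESeq2 called included Neb, B4galnt4, Cdc6, Cdca8 and Top2a, described here, and Prdx4, a peroxiredoxin gene of the endoplasmic reticulum, with a log2 fold change of 1.08 and an adjusted p of 0.0274 in DESeq2 and 0.633 in edgeR. The genes called lower included Pllp (plasmolipin), Fgfr3 (a fibroblast growth factor receptor), Scube1 and Ccl4, with adjusted p-values of 0.00125, 0.0254, 0.0254 and 0.0280 in DESeq2 and of 0.595, 0.817, 0.838 and 0.730 in edgeR. All 4 were low in both groups. Pllp was at 1.05 ± 0.390 CPM in CON (SD, n = 6) and 0.00980 ± 0.0219 CPM in RES libraries (SD, n = 5), Fgfr3 at 1.75 ± 1.08 and 0.193 ± 0.162 CPM, and Scube1 at 1.05 ± 0.640 and 0.0893 ± 0.0960 CPM.

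**Figure D1:**
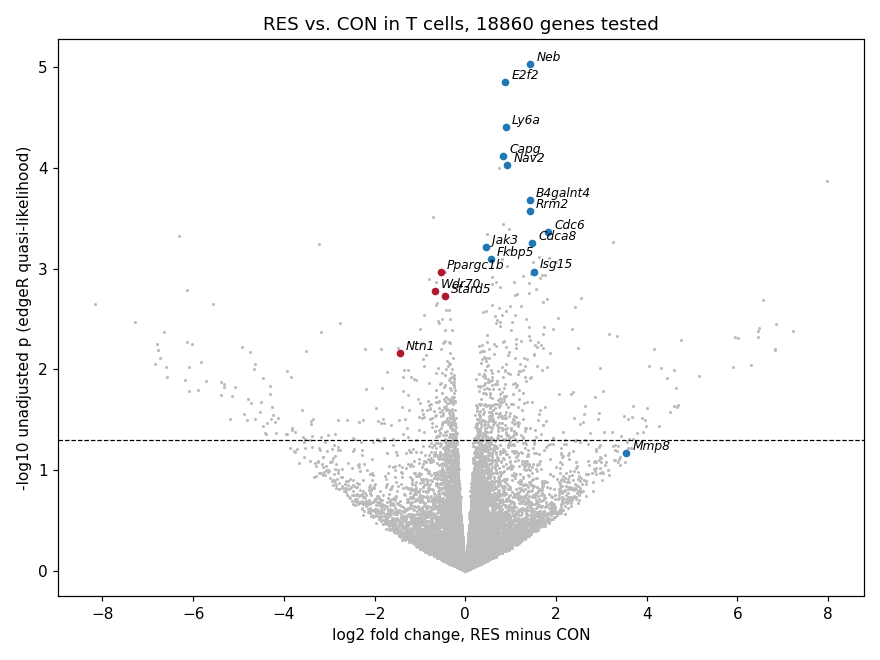
Each grey point is 1 of the 18860 genes tested, with the log2 fold change between RES and CON T cells on the x axis and the negative log10 of the unadjusted p on the y axis, and the dashed line marks the unadjusted threshold. Named genes are in blue (higher in RES) or red (lower), and Neb and E2f2 stand highest.

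**Figure D2:**
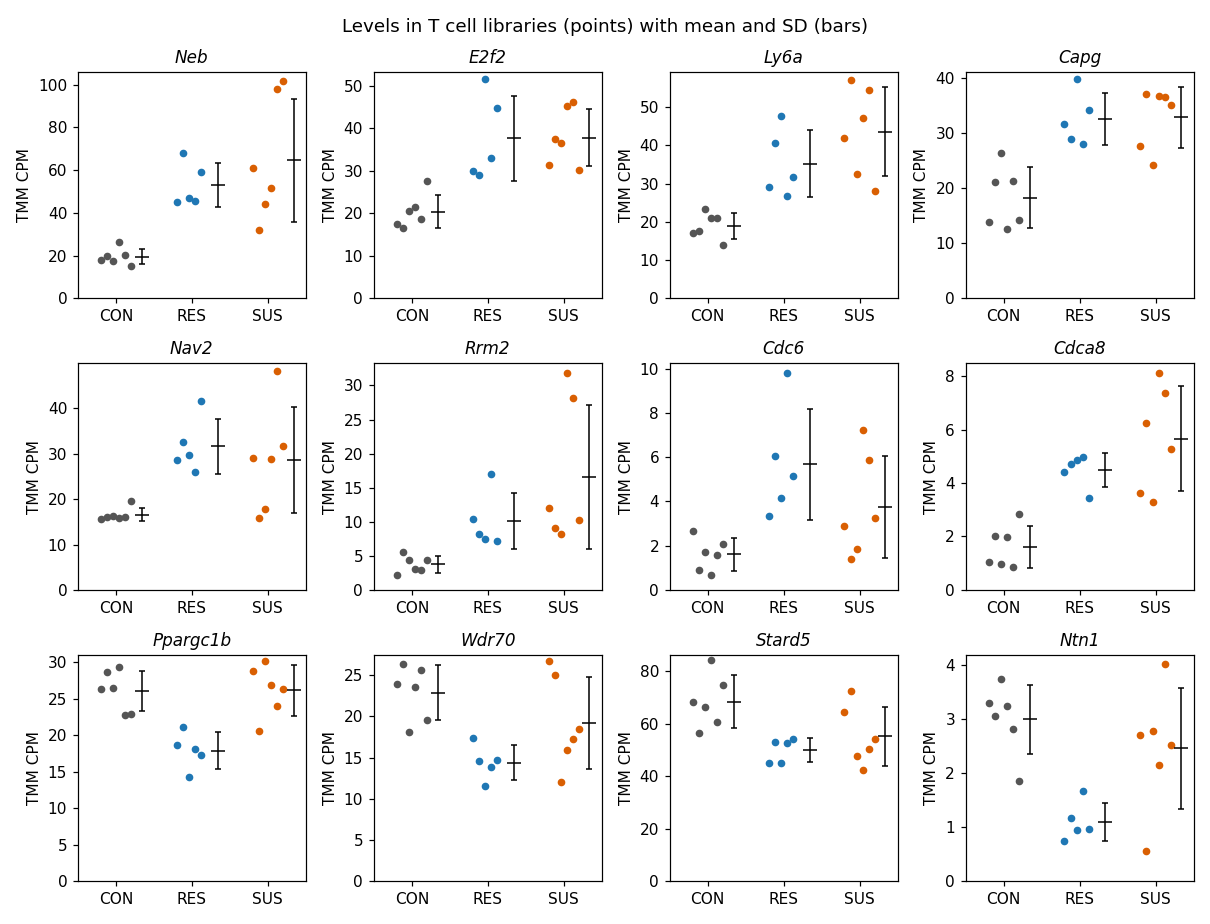
TMM-normalized CPM in each T cell library (points) for 12 genes named by the rule on non-overlapping groups, with the mean and SD beside each group (CON and SUS n = 6, RES n = 5). RES libraries lie above all CON libraries for the 8 genes from Neb to Cdca8 and below them for Ppargc1b, Wdr70, Stard5 and Ntn1, while SUS libraries overlap RES libraries in all 12 panels.

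Genes of cell division were mostly on the higher side. Of 25 proliferation genes tested, 23 had a higher fitted level in RES mice and 9 had an unadjusted p under 0.05, all higher. Over all 18860 genes tested, 9588 had a higher fitted level, and 2.4% were higher and 1.71% lower at that p. The median log2 fold change over the list was 0.73, against 0.0048 over all genes tested, and 0 of the 25 passed the adjusted test. In bulk libraries such as these, fewer cells of a type and less RNA per cell cannot be told apart. Rrm2, a subunit of ribonucleotide reductase, the enzyme that makes DNA precursors, was at 2.25 to 5.57 CPM (median 3.66) in CON and 10.4, 8.18, 7.47, 17.1 and 7.21 CPM in RES libraries. Its log2 fold change was 1.43 (standard error 0.34) and its adjusted p 0.562, and the groups did not overlap. Top2a, a topoisomerase of replicating cells, was at 13.1 to 23.7 CPM (median 14.2) in CON and 38.4, 29.3, 37.6, 47.8 and 36.3 CPM in RES libraries, again without overlap. Mki67, the source of the Ki-67 antigen, was at 21.8 to 47.0 CPM (median 27.5) in CON and 69.2, 67.2, 68.6, 80.0 and 70.9 CPM in RES libraries. Birc5, which encodes survivin, was at 0.632 to 5.40 CPM (median 1.46) in CON and 3.87, 6.32, 9.26, 9.49 and 4.81 CPM in RES libraries, and here the groups overlapped because CON library 68 reached 5.40 CPM. The log2 fold changes of Top2a, Mki67 and Birc5 were 1.28, 1.23 and 1.76. In edgeR's test Top2a and Birc5 had an adjusted p of 0.633, and none of these genes passed. With only the CON and RES libraries in the fit, Top2a and Mki67 had an adjusted p under 0.05.

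Outside the list, Cdc6, which loads the replicative helicase on DNA, and Cdca8, a subunit of the chromosomal passenger complex, were named by the rule on non-overlapping groups. Cdc6 was at 0.653 to 2.68 CPM (median 1.66) in CON and 3.35, 6.05, 4.14, 9.79 and 5.14 CPM in RES libraries, a log2 fold change of 1.83 (standard error 0.46). Cdca8 was at 0.859 to 2.83 CPM (median 1.51) in CON and 4.42, 4.72, 4.85, 4.98 and 3.42 CPM in RES libraries, a log2 fold change of 1.47 (standard error 0.38). Both had an adjusted p of 0.595. Replication-dependent histone genes, which are read mainly in S phase and whose transcripts lack a poly(A) tail, were covered by these total RNA libraries. Of 58 tested, 52 were on the higher side, and the median log2 fold change was 0.69. At an unadjusted p under 0.05, 15 were higher and 1 lower (2.4% and 1.71% of all genes tested). Hist1h2bm was at 0.958 to 5.47 CPM (median 1.98) in CON and 9.72, 5.45, 9.97, 10.1 and 6.72 CPM in RES libraries, with RES library 58 just under the highest CON library. Hist1h2bn was at 6.61 to 11.7 CPM (median 8.18) in CON and 12.4, 12.9, 19.9, 25.4 and 11.9 CPM in RES libraries, without overlap. Hist1h2bl, the histone gene with the largest fitted value of those named, was at 0 to 1.28 CPM (median 0.543) in CON and 5.14, 1.66, 5.78, 2.33 and 2.00 CPM in RES libraries, also without overlap. Without RES library 64 the histone median was 0.41. In the 7 libraries with more Lyz2, a myeloid transcript taken up below, 5 of 55 histone genes were higher at an unadjusted p under 0.05 with a median of 0.31. In the other 10 libraries 10 of 57 were, with a median of 0.98. Of all genes, 534 of 19592 were higher at that p in those 7 libraries and 466 of 18836 in the other 10. Histone genes are near-identical in sequence, so the split of reads among them is uncertain.

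Since E2f2 and genes of replication stood together among the leading genes, promoters were searched for the E2F letters TTTGGCGC and TTTCCCGC on both strands, from 250 bases before to 50 after the annotated start in RefSeq (GRCm38.p6). The proliferation list was chosen as known cell cycle genes, so its share of such promoters describes the list and not these samples. Such letters were found in 514 of 32851 promoters (1.56%), in 335 of the 10998 promoters of genes tested (3.05%) and in 4 of the 21 proliferation genes with a promoter in the table (19%), namely Mcm3, Mcm5, Mcm6 and Mcm7, which encode helicase subunits. Cdc6 held 1 such match, whereas the Rrm2 window held none. The 250 bases before the start of Cdc6 (chr11:98907901-98908150, plus strand) are shown as the example among the leading genes, with the match, which reads TTTCCCGC on the other strand, in capitals.
Cdc6: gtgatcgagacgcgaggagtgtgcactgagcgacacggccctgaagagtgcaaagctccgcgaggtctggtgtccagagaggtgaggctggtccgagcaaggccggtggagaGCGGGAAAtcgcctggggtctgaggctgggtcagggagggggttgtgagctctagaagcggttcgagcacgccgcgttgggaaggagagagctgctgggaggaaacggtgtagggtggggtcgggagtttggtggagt

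Genes of regulatory T cells, which restrain immune responses and depend on Foxp3 and the interleukin-2 receptor, were also mostly on the higher side. Of 16 tested, 15 were on the higher side, and the median log2 fold change was 0.61. There were 9 higher at an unadjusted p under 0.05 (2.4% of all genes tested). Il2ra, the α chain of the interleukin-2 receptor, was at 13.0 to 20.5 CPM (median 16.9) in CON and 42.7, 38.6, 16.8, 26.2 and 40.3 CPM in RES libraries. Its log2 fold change was 0.97 (standard error 0.24) with an adjusted p of 0.595, and RES library 61 lay within the CON range. Foxp3, the defining transcription factor, was at 18.8 to 42.2 CPM (median 26.0) in CON and 45.4, 39.5, 43.4, 29.2 and 62.2 CPM in RES libraries, a log2 fold change of 0.65 (standard error 0.27) with an adjusted p of 1.00. Gpr83, a receptor gene high in these cells, was at 6.04 to 10.5 CPM (median 8.54) in CON and 19.1, 25.3, 10.0, 12.3 and 13.2 CPM in RES libraries, and Tigit, an inhibitory receptor gene, at 2.69 to 11.4 CPM (median 4.03) and 13.8, 12.6, 9.21, 7.37 and 18.9 CPM. The groups overlapped for Foxp3, Gpr83 and Tigit. Ctla4, the inhibitory receptor gene that regulatory T cells express without stimulation, was at 1.35 to 5.57 CPM (median 2.15) in CON and 5.42, 6.63, 4.61, 4.42 and 8.64 CPM in RES libraries, a log2 fold change of 1.12 (standard error 0.37). Il1rl1, a receptor gene of regulatory T cells in tissue and of group 2 innate lymphoid cells, was at 2.46 to 11.4 CPM (median 9.37) in CON and 20.3, 21.0, 14.2, 10.4 and 12.5 CPM in RES libraries, with RES library 64 within the CON range. The 7 T cell libraries with more Lyz2 gave 11 of the 16 genes at an unadjusted p under 0.05, all higher, with a median of 0.82. The other 10 gave 2 higher and 1 lower with a median of 0.30. Over all genes, the fit to those 7 had 534 higher and 408 lower of 19592 at that p. The fit to the other 10 had 466 higher and 509 lower of 18836.

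Effector and memory genes had a lower median. Of 27 tested, 20 were on the higher side, with a median log2 fold change of 0.27. Of these, 8 had an unadjusted p under 0.05 (2.4% of all genes tested were higher at that p). Without RES library 61 that count was 5, and the median was 0.14 without RES library 67 and 0.45 without CON library 68. Lgals1, which encodes galectin-1, was at 32.4 to 67.9 CPM (median 48.1) in CON and 84.5, 63.3, 102, 84.5 and 86.0 CPM in RES libraries, and only RES library 58 lay under the highest CON library. Vim, encoding vimentin, was at 344 to 432 CPM (median 403) in CON and 543, 429, 681, 532 and 562 CPM in RES libraries. The log2 fold changes were 0.75 (standard error 0.16) and 0.48 (standard error 0.12), with adjusted p-values of 0.318 and 0.595 from edgeR's test. Klrg1, a receptor gene of terminally differentiated cells, was at 1.41 to 11.3 CPM (median 2.70) in CON and 11.6, 9.94, 7.30, 9.97 and 17.2 CPM in RES libraries, with CON library 68 alone above 3.70 CPM among the controls. Lgals3, encoding galectin-3, did not overlap, with 0.370 to 7.22 CPM (median 4.75) in CON and 11.9, 9.22, 12.3, 10.4 and 12.7 CPM in RES libraries.

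Among 13 tested regulators of helper T cell subsets, 9 were on the higher side, with a median log2 fold change of 0.50. Of these 9, 7 had an unadjusted p under 0.05 (2.4% of all genes tested were higher at that p). Icos, a costimulatory receptor gene of follicular helper and regulatory cells, was at 15.2 to 19.5 CPM (median 17.0) in CON and 20.9, 23.0, 35.0, 21.2 and 29.6 CPM in RES libraries. Rora, a nuclear receptor gene of type 17 helper and innate-like cells, was at 12.0 to 25.3 CPM (median 23.1) in CON and 42.2, 47.8, 38.4, 30.7 and 51.1 CPM in RES libraries. CON and RES libraries did not overlap for either gene, and the log2 fold changes were 0.60 (standard error 0.17) and 1.03 (standard error 0.30) with adjusted p-values of 0.633 and 0.781. Ccr6 and Ccr4, the chemokine receptor genes of type 17 and type 2 helper cells, overlapped between the groups. Ccr6 was at 0.828 to 7.60 CPM (median 2.60) in CON and 10.2, 4.93, 5.95, 7.34 and 8.23 CPM in RES libraries, and Ccr4 at 4.06 to 14.7 CPM (median 8.39) and 18.0, 19.9, 17.3, 11.1 and 12.8 CPM. Cd163l1, a scavenger receptor gene of γδ T cells, was at 3.20 to 16.3 CPM (median 7.88) in CON and 32.5, 8.10, 23.5, 13.3 and 27.1 CPM in RES libraries. The list of γδ and innate-like genes had 6 of 8 on the higher side, with a median log2 fold change of 0.50, and 1 of 8 at an unadjusted p under 0.05.

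Genes of the type I interferon response, which cells switch on through the ISRE element after interferon binds its receptor, were also mostly on the higher side. Of 29 tested, 27 were on the higher side, with a median log2 fold change of 0.46 and 0 past the adjusted test. There were 11 higher at an unadjusted p under 0.05 (2.4% of all genes tested). Without RES library 58 that count was 6 with a median of 0.28, and without CON library 68 it was 7. Isg15, a ubiquitin-like modifier, was at 1.44 to 6.26 CPM (median 2.09) in CON and 5.38, 8.78, 16.5, 4.69 and 3.83 CPM in RES libraries. Ifit3b, which encodes an RNA-binding antiviral protein, was at 1.82 to 6.65 CPM (median 2.46) in CON and 5.99, 15.1, 11.7, 5.16 and 6.52 CPM in RES libraries. CON library 56 held the highest control value of both and overlapped the lower RES libraries, and the log2 fold changes were 1.51 (standard error 0.41) and 1.41 (standard error 0.40), each with an adjusted p of 0.633. Oas2, a sensor that makes oligoadenylate, was at 8.49 to 17.1 CPM (median 9.81) in CON and 13.9, 32.9, 28.7, 12.6 and 22.0 CPM in RES libraries. Zbp1, a sensor of Z-form nucleic acid, was at 57.2 to 81.6 CPM (median 69.1) in CON and 94.7, 114, 116, 65.6 and 89.1 CPM in RES libraries, with RES library 64 within the CON range.

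The ISRE letters, GAAA repeated after any 2 bases, were found on either strand in 1131 of 32851 promoters (3.44%), in 344 of the 10998 of genes tested (3.13%) and in 13 of the 22 interferon genes with a promoter in the table (59.1%). The list was chosen for its known response to interferon, so that share describes the list and not these samples. Both leading genes held the letters. In Isg15 (chr4:156200819-156201068, minus strand) 3 overlapping matches spanned the bases 78 to 57 before the start, and in Ifit3b (chr19:34607707-34607956, plus strand) 2 separate matches on the other strand lay between 188 and 145 bases before it. The 250 bases before each start are shown from RefSeq with the matches in capitals.
Isg15: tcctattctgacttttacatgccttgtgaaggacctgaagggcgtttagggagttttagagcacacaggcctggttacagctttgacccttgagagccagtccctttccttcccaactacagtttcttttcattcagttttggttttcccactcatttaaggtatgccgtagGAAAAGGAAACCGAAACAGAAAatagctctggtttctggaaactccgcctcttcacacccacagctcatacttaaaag
Ifit3b: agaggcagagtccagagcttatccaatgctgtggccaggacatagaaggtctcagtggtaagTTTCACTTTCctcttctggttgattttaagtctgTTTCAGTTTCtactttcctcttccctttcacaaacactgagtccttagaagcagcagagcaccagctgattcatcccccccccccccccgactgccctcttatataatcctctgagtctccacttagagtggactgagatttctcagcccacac

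Of the stress hormone genes, Fkbp5, a co-chaperone of the glucocorticoid receptor, had the smallest p. Fkbp5 was at 26.9 to 38.8 CPM (median 32.9) in CON and 41.0, 43.2, 66.2, 51.9 and 39.1 CPM in RES libraries, so that RES library 67 lay just above the highest control. The log2 fold change was 0.56 (standard error 0.15) with an unadjusted p of 0.000799 and an adjusted p of 0.630. No other gene of the glucocorticoid list had groups without overlap. Tsc22d3, which encodes GILZ, was at 304 to 439 CPM (median 368) in CON and 354, 432, 486, 424 and 308 CPM in RES libraries, and Per1, a clock gene with a glucocorticoid response, at 27.7 to 46.8 CPM (median 41.3) and 28.8, 34.1, 47.1, 40.9 and 50.1 CPM. Over the list of 23 glucocorticoid response genes tested, 13 were on the higher side, and the median log2 fold change was 0.03. Fkbp5 alone, 1 of the 23, had an unadjusted p under 0.05, as did 4.11% of all genes tested in either direction. The receptor gene Nr3c1 itself was at 89.8 to 136 CPM (median 102) in CON and 85.0, 109.5, 94.4, 108 and 99.9 CPM in RES libraries, a log2 fold change of -0.08 (standard error 0.11).

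Of 27 genes of adrenergic and cyclic AMP signalling, 17 were on the lower side, with a median of -0.12. At an unadjusted p under 0.05, 3 were lower and 1 higher (1.71% and 2.4% of all genes tested). The 3 lower genes were Pde3b and Pde4d, which encode enzymes that break down cyclic AMP, and Creb1, the transcription factor activated by it, with log2 fold changes of -0.30, -0.25 and -0.23. Nr4a1, an orphan nuclear receptor gene induced by antigen and by cyclic AMP, was at 2.32 to 5.67 CPM (median 4.60) in CON and 7.84, 14.5, 9.58, 4.78 and 5.18 CPM in RES libraries. Among 20 immediate early genes, 14 were on the higher side and 4 were higher at an unadjusted p under 0.05 (2.4% of all genes tested). These 4 were Fosb, Junb, Nr4a1 and Fos. Fosb, an AP-1 subunit, was at up to 3.51 CPM (median 3.16) in CON and 4.71, 3.07, 8.31, 10.2 and 14.6 CPM in RES libraries. Nr1d1, a repressor in the clock, had a log2 fold change of 0.82 (standard error 0.29) and overlapped between the groups.

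Mmp8, the collagenase on which the study centres, was near the limit of detection in T cells. It was at 0 to 0.592 CPM (median 0) in CON and 3.52, 2.24, 0.0245, 0.0895 and 0 CPM in RES libraries, and the 2 RES libraries above 1 CPM, 55 and 58, were those with more Lyz2. Mmp9, encoding gelatinase B, was at 0 to 0.729 CPM (median 0.446) in CON and 1.68, 0.849, 2.35, 1.97 and 4.44 CPM in RES libraries, without overlap and with an adjusted p of 1.00. Both stand among the 14 neutrophil markers, of which Ly6g, Lcn2 and Elane had 0 counts in all 11 libraries and the other 11 had counts. Of the 6 tested, 4 were on the higher side, with a median log2 fold change of 0.43. The summed level of the 14 markers, Mmp8 and Mmp9 included, overlapped between the groups, at 0.169 to 16.1 CPM in CON and 2.15 to 14.0 CPM in RES. In the libraries with less Lyz2, a split chosen after seeing the data, the sums were 0.169 to 1.55 and 2.15 to 4.61 CPM. There the sums of RES libraries 61, 64 and 67 were 4.21, 2.15 and 4.61 CPM, of which Mmp9 alone made 2.35, 1.97 and 4.44 CPM. That separation therefore restates the Mmp9 values. In sorted Ly6C-high monocytes, the inflammatory monocytes of blood, Mmp8 was at 115 ± 15.2 CPM in CON and 227 ± 79.9 CPM in RES libraries (SD, n = 6 each). Its log2 fold change there was 0.98 (standard error 0.75), with an unadjusted p of 0.198 from edgeR's quasi-likelihood test. Summed monocyte markers were at 409 and 379 CPM in RES T cell libraries 55 and 58. They were at 220, 284 and 131 CPM in CON T cell libraries 53, 56 and 59, of which 53 alone had a count of Mmp8. The part of neutrophils and of monocytes in the Mmp8 and Mmp9 values was not tested.

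Of the 10 lower genes named by the rule, which asks for protein-coding genes that average 50 counts or more and whose groups stay apart, Ppargc1b had the smallest p. It encodes a coactivator of mitochondrial gene expression. Ppargc1b was at 22.8 to 29.3 CPM (median 26.4) in CON and 18.7, 21.2, 14.3, 18.2 and 17.2 CPM in RES libraries, without overlap. Its log2 fold change was -0.54 (standard error 0.15) with an adjusted p of 0.633. Wdr70, encoding a WD repeat protein, was at 18.1 to 26.3 CPM (median 23.8) in CON and 17.3, 14.5, 11.5, 13.9 and 14.8 CPM in RES libraries. Stard5, of a family of lipid transfer proteins, was at 56.5 to 84.0 CPM (median 67.3) in CON and 44.9, 53.0, 45.2, 52.5 and 54.1 CPM in RES libraries. Ntn1, which encodes the guidance cue netrin-1, had the lowest fitted value of the 10 lower genes named, with 1.86 to 3.75 CPM (median 3.15) in CON and 0.743, 1.18, 0.955, 1.67 and 0.978 CPM in RES libraries and a log2 fold change of -1.44 (standard error 0.49). Atp2c1, a calcium pump gene of the Golgi, and Map3k3, a kinase gene upstream of the MAP kinases, had log2 fold changes of -0.42 and -0.29. The other 4 of these genes were Poc1b, Nsmce4a, Arhgap39 and Aldh4a1, between -0.95 and -0.33. Adjusted p-values of the 10 ran from 0.633 to 0.842 in edgeR's test. Although Ppargc1b was among them, the 75 nuclear genes of oxidative phosphorylation had a median log2 fold change of 0.03.

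T cell identity genes were at like levels in both groups. Of 15 T cell markers, 4 were on the higher and 11 on the lower side, 0 had an unadjusted p under 0.05, and the median log2 fold change was -0.04. Cd4 was at 275 to 388 CPM (median 314) in CON and 283, 349.8, 311, 285 and 317 CPM in RES libraries, and Cd8a at 411 to 534 CPM (median 485) and 517, 408, 603, 465 and 483 CPM. Their log2 fold changes were -0.08 (standard error 0.09) and 0.04 (standard error 0.11). The variable segments of the α and β chains had medians of -0.13 over 81 and -0.04 over 24 segments, with 0 at an unadjusted p under 0.05, and these segments are alike in sequence. Among 20 naive and central memory genes, 15 were on the lower side with a median of -0.08. At an unadjusted p under 0.05, 1 was lower and 0 higher (1.71% and 2.4% of all genes tested). S1pr1, the receptor that lets T cells leave lymphoid organs, had the smallest p on the lower side. It was at 555 to 611 CPM (median 577) in CON and 557, 490.1, 465, 424 and 512 CPM in RES libraries, with overlap. Igfbp4, of the same list, went the other way without overlap. In the fit of 68 libraries described below, Igfbp4 was at 428 to 511 CPM in CON and 526 to 730 CPM in RES T cells, a log2 fold change of 0.29 (standard error 0.48). Itga6, encoding the integrin α6 chain, did not overlap, with 189 to 226 CPM (median 197) in CON and 167, 189, 163, 165 and 143 CPM in RES libraries and a log2 fold change of -0.27 (standard error 0.09).

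Genes of cytokine signalling lay on both sides, and none passed the adjusted test. Among the 18 JAK-STAT and SOCS genes, 2 had an unadjusted p under 0.05, both higher. They were Jak3, given above, and Socs3, the feedback inhibitor of STAT3 signalling. Of all genes tested, 2.4% were higher at that p and 1.71% lower. Socs3 was at 63.0 to 88.0 CPM (median 67.9) in CON and 129, 93.3, 129, 92.5 and 161 CPM in RES libraries, without overlap, with a log2 fold change of 0.78 (standard error 0.23) and an adjusted p of 0.781. Of 26 cytokine receptor genes, 4 were higher at an unadjusted p under 0.05, and Il18r1, the interleukin-18 receptor gene, was at 99.4 to 124 CPM (median 112) in CON and 120, 121, 158, 159 and 165 CPM in RES libraries. The others were Il2ra, Tnfrsf1b, the second receptor of tumour necrosis factor, and Il10ra, the receptor of the anti-inflammatory cytokine interleukin-10, with log2 fold changes of 0.40 and 0.35 for the latter pair. Cytotoxic effectors had a median of 0.05 over 15 genes, although Gzmm, a granzyme gene, was at 3.29 to 9.70 CPM (median 7.13) in CON and 5.79, 5.74, 22.5, 14.6 and 14.9 CPM in RES libraries. The chemokine gene Ccl4 had counts in 4 of the 6 CON libraries, up to 1.14 CPM, and in RES library 67 alone, at 0.0408 CPM. Heat shock genes, NF-κB genes, MHC class I genes, apoptosis genes, inhibitory receptors, glycolysis genes, mTOR and amino acid stress genes, T cell receptor signalling genes, cytokine and chemokine genes, trafficking genes and clock genes had medians between -0.13 and 0.11. The trafficking list had 5 higher and 2 lower of 28 genes at an unadjusted p under 0.05. Within these lists, Trib3, a pseudokinase gene of the amino acid stress response, was at 1.56 to 5.38 CPM (median 3.60) in CON and 0.939, 0.414, 1.13, 1.40 and 3.06 CPM in RES libraries, a log2 fold change of -1.36 (standard error 0.49) with overlap. Pgk1 and Pgam1, enzymes of glycolysis, had log2 fold changes of 0.31 and 0.33, and Mdm2, the ligase that degrades p53, of -0.23. Cytosolic ribosomal protein genes had a median of 0.04 over 83 genes and mitochondrially encoded proteins -0.09 over 13.

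**Figure D3:**
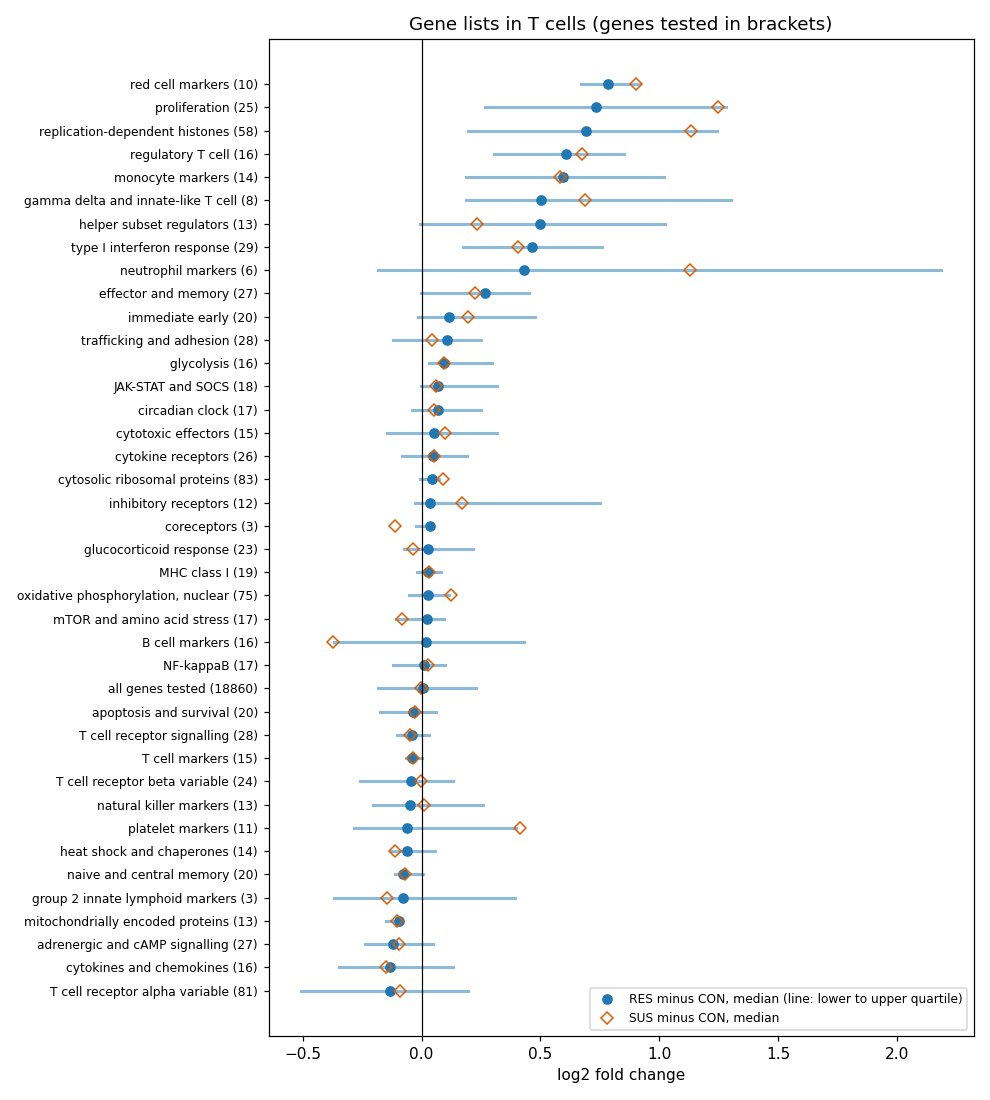
Median log2 fold change of each gene list between RES and CON T cells (filled circles, with a line from the lower to the upper quartile of its genes) and between SUS and CON T cells (open diamonds). The largest RES minus CON medians are those of red cell markers (0.78), proliferation genes (0.73), histones (0.69), regulatory T cell genes (0.61) and monocyte markers (0.59). The median of all genes tested is 0.0048.

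Markers of other blood cells were set beside these values. Lyz2, a myeloid lysozyme, split the T cell libraries into 7 with more than 20 CPM (3 CON, 2 SUS and 2 RES) and 10 with less (3 CON, 4 SUS and 3 RES), a split that follows the library numbers and is spread over the groups. Of 14 monocyte markers, 11 were on the higher side in RES mice, 0 had an unadjusted p under 0.05, and the median log2 fold change was 0.59. The summed monocyte markers (14 genes, none at 0 throughout) were at 40.3 to 284 CPM in CON and 29.1 to 409 CPM in RES libraries. In the libraries with less Lyz2 they were at 40.3 to 44.8 and 29.1 to 42.0 CPM. With a term for this split, 0 genes passed and 501 higher and 334 lower genes had an unadjusted p under 0.05. Within the libraries with less Lyz2, the proliferation list had a median of 0.76 and 8 of 25 genes at an unadjusted p under 0.05, and within the others 0.68 and 6, all higher. Of all genes, 466 of 18836 were higher at that p within the libraries with less Lyz2 and 534 of 19592 within the others. The interferon list had medians of 0.41 and 0.47, in the same order.

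Red cell markers, of which hemoglobin transcripts are the most abundant, were on the higher side in all 10 genes tested. The median log2 fold change was 0.78, and 4 genes had an unadjusted p under 0.05 (2.4% of all genes tested were higher at that p). The summed level of the 10 markers was 964 to 3038 CPM (median 1607) in CON and 1830 to 4977 CPM (median 2080) in RES libraries. That count of 4 was 0 without RES library 58 or 61, which held the highest sums, 1 without CON library 53, 59 or 68, 2 without CON library 62 or 65 and 7 without CON library 56. Hba-a1, an α globin gene, was at 426 to 1344 CPM (median 684) in CON and 885, 2289, 1880, 926 and 926 CPM in RES libraries, and Slc4a1, the anion exchanger of the red cell membrane, at 1.07 to 9.29 CPM (median 6.96) and 3.31, 30.1, 40.1, 9.79 and 15.0 CPM. E2f2 is also expressed in red cell precursors. Of the RES libraries, library 58 had the highest red cell sum (4977 CPM) and the lowest E2f2 (28.9 CPM), and library 61 the next highest sum (4315 CPM) and the highest E2f2 (51.5 CPM). The part of red cells in the E2f2 values was not tested. Summed B cell markers were at 258 to 373 and 233 to 357 CPM, natural killer markers at 23.1 to 84.5 and 38.2 to 85.7 CPM, and platelet markers at 136 to 170 and 103 to 148 CPM, in CON and RES libraries. Group 2 innate lymphoid markers, of which Il13 was at 0 throughout, were at 11.5 to 22.8 and 18.8 to 26.9 CPM. The part of these cells in the values above was not tested, and the split by Lyz2 was made on a myeloid transcript.

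**Figure D4:**
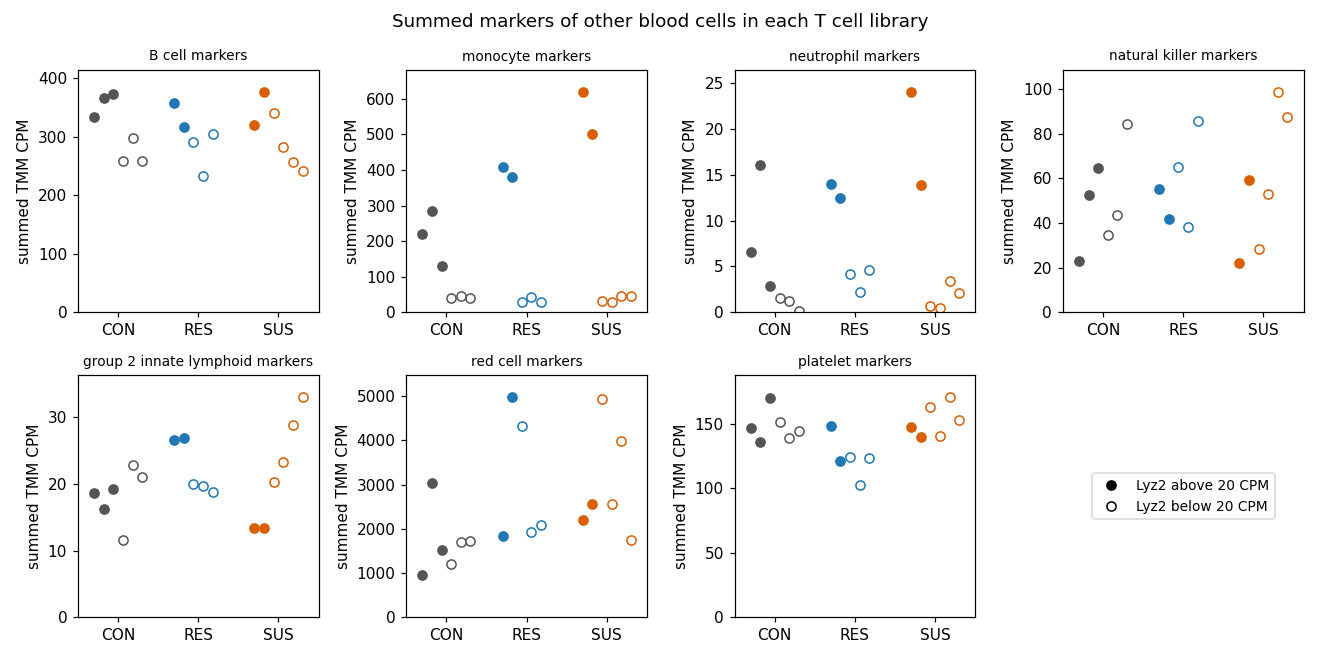
Summed TMM-normalized CPM of the markers of 7 other blood cell types (one panel each, y axis from 0) in every T cell library of CON, RES and SUS mice. Filled points are the 7 libraries with Lyz2 above 20 CPM, in which the monocyte sums reach up to 620.3 CPM, and open points the other 10.

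RES and SUS mice had the same stress and differed in behaviour, so their T cells were compared directly. No gene passed: 0 of 18860 (0%) had an adjusted p under 0.05, and 221 (1.17%) were higher and 230 (1.22%) lower in RES mice at an unadjusted p under 0.05 in edgeR's test. DESeq2 called 5 genes, 1 higher and 4 lower. The contrast of SUS with CON mice, which shares the 6 CON libraries with that of RES mice, had 5 genes (0.0265%) past both thresholds and 8 (0.0424%) at an adjusted p under 0.05. The SUS values of the leading genes are therefore set beside those of RES mice and not counted as separate evidence. Neb was at 31.9 to 102 CPM (median 56.3) in SUS libraries, with a log2 fold change against CON of 1.72 and an adjusted p of 0.00338. Ly6a was at 28.2 to 57.1 CPM (median 44.6), E2f2 at 30.2 to 46.2 CPM (median 37.0) and Il2ra at 21.2 to 59.4 CPM (median 37.2) in SUS libraries, with log2 fold changes against CON of 1.20, 0.89 and 1.24 and adjusted p-values of 0.00338, 0.0262 and 0.0312. Between RES and SUS the log2 differences of Neb, Ly6a, E2f2 and Il2ra were -0.29, -0.31, -0.01 and -0.28, each with an adjusted p of 1.

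The proliferation list had a median of 0.73 for RES and 1.25 for SUS against CON, and the histones 0.69 and 1.13. Rrm2 was at 8.18 to 31.8 CPM (median 11.1) in SUS libraries, a log2 fold change of 2.15 against CON with an adjusted p of 0.00338, and differed between RES and SUS by -0.72 with an unadjusted p of 0.0449. Socs3 was at 138 to 351 CPM (median 224) in SUS libraries, a log2 fold change of 1.72 against CON with an adjusted p of 0.00338. The RES minus SUS difference of Socs3 was -0.95 (standard error 0.23), at an unadjusted p of 0.000805 and an adjusted p of 1, and RES library 67 (161 CPM) lay within the SUS range. Ppargc1b was at 20.6 to 30.2 CPM (median 26.6) in SUS libraries, a log2 fold change of 0.00392 against CON and of -0.55 between RES and SUS at an unadjusted p of 0.00102. The regulatory T cell and interferon lists had medians of 0.61 and 0.46 for RES and 0.67 and 0.41 for SUS against CON, and 0 of the 16 and 0 of the 29 genes had an unadjusted p under 0.05 between RES and SUS in either direction.

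The RES minus CON difference in T cells was compared with that in the other sorted cells by interaction terms in a fit of 68 libraries with 12 group means, without library 70 and without library 52, which was labelled RES B cells and carried T cell markers. Against B cells, 5 of 24248 genes (0.0206%) had an adjusted p under 0.05, 2 with a larger and 3 with a smaller difference in T cells. Arhgap39, which encodes a GTPase-activating protein, was at 32.7 ± 4.78 CPM in CON and 23.1 ± 1.76 CPM in RES T cells (SD, n = 6 and 5) and at 11.2 ± 1.83 CPM in CON and 17.4 ± 5.19 CPM in RES B cells (SD, n = 6 and 5). The difference between the T cell and B cell fold changes was -1.14 on the log2 scale, with an adjusted p of 0.0116. For Rora and Mocos, which also passed, a group was at 0 in B cells, where a fitted value depends on the prior count. Rora had 0 counts in all 5 RES B cell libraries and 0 to 2.62 CPM in CON B cells, and Mocos, which encodes molybdenum cofactor sulfurase, had 0 counts in all 6 CON B cell libraries. E2f2 was at 86.7 ± 14.7 CPM in CON and 79.9 ± 17.3 CPM in RES B cells, and its interaction had an adjusted p of 0.0846. The count of 5 was 0 with only T and B cells in the fit, and 8 to 12 without T cell libraries 53, 55, 59, 62, 65 or 68.

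Against Ly6C-high monocytes, the inflammatory monocytes of blood, 173 of 24248 genes (0.713%) had an adjusted p under 0.05, 111 larger and 62 smaller in T cells. Many of the larger ones had a group at or near 0, where the fitted value depends on the prior count. Vegfc and Tshb averaged 8.46 and 5.91 counts in CON and RES T cell libraries, with differences of 13.0 and 12.6. Cobll1, with the smallest p, was at 0.670 CPM in CON and 0.00921 CPM in RES monocytes. Il4ra, the α chain of the interleukin-4 receptor, was at 299 ± 24.0 CPM in CON and 285 ± 27.6 CPM in RES T cells and at 95.4 ± 12.8 CPM in CON and 241 ± 113 CPM in RES Ly6C-high monocytes (SD, n = 6 each in monocytes). The fold changes of Il4ra in the 2 cell types differed by -1.41 on the log2 scale, with an adjusted p of 0.0111. Ppp2cb, a catalytic subunit of protein phosphatase 2A, was at 41.4 ± 7.74 CPM in CON and 41.3 ± 2.51 CPM in RES T cells and 55.7 ± 9.62 CPM in CON and 123 ± 43.0 CPM in RES Ly6C-high monocytes, a difference of -1.15 with an adjusted p of 0.0134. Nfkbiz, a regulator of NF-κB target genes, was at 47.4 ± 5.99 CPM in CON and 59.5 ± 3.94 CPM in RES T cells and 128 ± 13.4 CPM in CON and 80.6 ± 17.7 CPM in RES Ly6C-high monocytes, a difference of 1.00 with an adjusted p of 0.00929. The count of 173 depended on single libraries: it was 447 without RES T cell library 61, between 74 and 115 without T cell libraries 56, 58, 59, 62, 64 or 67, and 4 with only the 2 cell types in the fit.

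**Figure D5:**
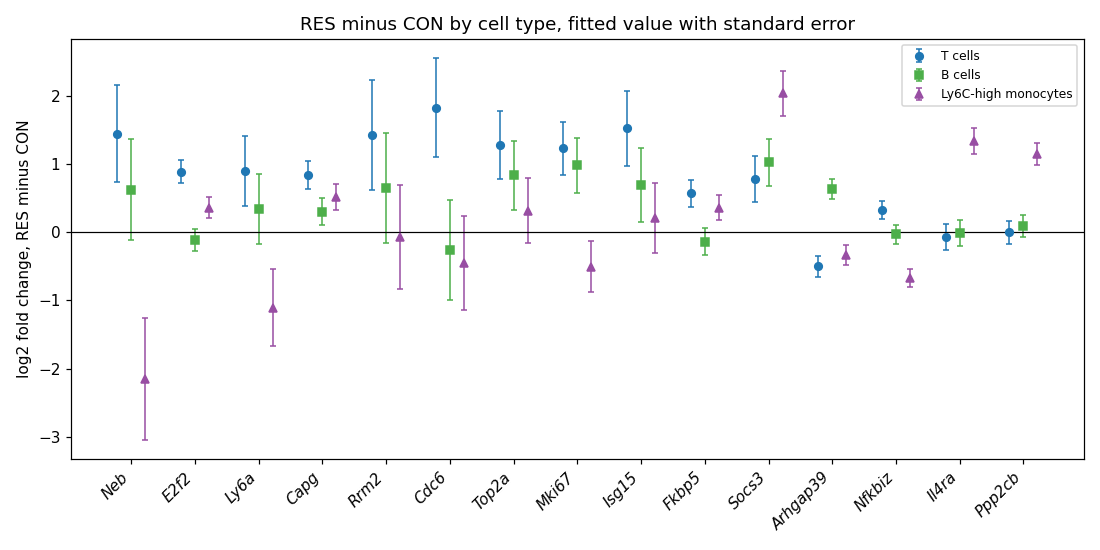
Fitted log2 fold change between RES and CON mice with its standard error for 15 named genes in T cells (circles), B cells (squares) and Ly6C-high monocytes (triangles), from the fit of 68 libraries. Il4ra and Ppp2cb lie near 0 in T cells and above 1 in Ly6C-high monocytes, and Arhgap39 lies below 0 in T cells and above it in B cells.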

How the data were processed

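Blood T cells of CON, SUS and RES mice were measured by total RNA-seq (SMARTer Stranded Total RNA-Seq Pico v2). The authors mapped reads to mm10 with HISAT2 2.1.0 and deposited raw read counts per Ensembl 90 gene, made with htseq-count 0.12.4 (strand, multi-mapping and duplicate settings are not given in the sources used here). Reads of overlapping or near-identical genes may therefore be misassigned. Of 52636 genes, 52403 matched GENCODE M21 (GRCm38), which gave coordinates.

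Genes were kept by filterByExpr over 17 T cell libraries, scaled by TMM and tested with the quasi-likelihood test of edgeR 4.0.16 in R 4.3.3 with Benjamini-Hochberg adjustment. The study used DESeq2, here an alternative (version 1.42.0). The steps were tested on simulated data. Named genes were those called, the 10 higher and 10 lower protein-coding genes with the smallest p among those without overlap between CON and RES and a mean of at least 50 counts, up to 4 per list by p, chosen genes of T cell identity and stress hormone response, and up to 3 per direction in each interaction. Other genes given by name were chosen after their values were seen. Results on a few genes are not reported here. The comparison, the 39 lists and the rule were chosen with earlier results of these data known. Alternatives were scaling, filters, thinning, tools, groups in the fit and leaving out each library.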

Additional observations from a re-analysis of the deposited data

Results flagged for a closer look

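Of 190 groups of 5 or 6 libraries examined over the named genes and library measures, 21 had 1 library far from the others by Dixon's 95% limit. Chance gives about 1 in 20 for independent, normally distributed values, which these levels need not be, so the 21 cannot be judged against that rate. Where all other libraries are at 0, any count passes the limit, as for Ccl4 in RES and for Gp1bb and Mmp8 in CON. CON library 68 was far above the other CON libraries for Nav2 (19.6 CPM, others 15.7 to 16.4), Top2a (23.7, others 13.1 to 15.4), Birc5 (5.40, others 0.632 to 2.21), Klrg1 (11.3, others 1.41 to 3.70) and Pgam1, a glycolytic enzyme gene (43.5, others 26.0 to 31.9). This library also had the lowest total, 27257572 counts against 37931098 to 43437501. CON library 53 was far above the others for Socs3 (88.0 CPM, others 63.0 to 69.6), Itga6 (226, others 189 to 197) and Nr3c1 (136, others 89.8 to 105), and was the one CON library with a count of Mmp8 (0.592) or of the platelet gene Gp1bb (0.113). CON library 56 was far above for Isg15 (6.26 CPM, others 1.44 to 2.85) and for the hemoglobin genes Hba-a1 (1344, others 426 to 745) and Hba-a2 (593, others 195 to 315). CON library 62 was high for Aldh4a1, an enzyme of proline breakdown (15.0 CPM, others 6.72 to 8.88), and low for Il1rl1, the interleukin-33 receptor gene (2.46, others 8.82 to 11.4), and CON library 59 was low for Ndufb4, a subunit of respiratory complex I (4.71, others 7.47 to 9.13). Among RES libraries, library 64 was low for Aldh4a1 (2.60 CPM, others 4.93 to 5.82), library 58 high for Trat1, a T cell receptor adaptor gene (25.3, others 15.6 to 17.7), library 61 at 0 for Gp1bb (others 0.567 to 0.766), and library 67 alone above 0 for Ccl4 (0.0408).

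The RES minus CON difference in T cells differed from that in B cells for Arhgap39 (-1.14 on the log2 scale), Rora (9.21) and Mocos (-7.61), with adjusted p-values of 0.0116, 0.00175 and 0.0140 in edgeR's interaction test. It differed from that in Ly6C-high monocytes for Nfkbiz (1.00), Cobll1 (6.79), Gem (5.40), Il4ra (-1.41), Ppp2cb (-1.15) and Gatd1 (-1.32), with adjusted p-values of 0.000593 to 0.0257. Values above 5 in size rest on a group at or near 0 and depend on the prior count.

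Signal was also found in the 2 libraries left out. The B cell markers Cd79a and Ms4a1 stood at 1079 and 374 CPM in library 70, which carries a T cell label. Library 52, labelled RES B cells, had 352 CPM of Cd3e, 426 of Cd3g and 339.7 of Lck.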

How the results depend on the processing

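RLE scaling, no filter or a stricter one, thinning to the smallest total, glmTreat, removal of mitochondrial, hemoglobin, Gm23935 and Gm26917 counts and library 70 kept under its label left the count of genes called between RES and CON at 0, as did the term for Lyz2, added after seeing the data. DESeq2 called 17 and 5 between RES and SUS, edgeR with only the CON and RES libraries called 4, and the 10 libraries with less Lyz2, chosen after seeing the data, gave 1 (Kif2c). Leaving out 1 library gave 0 to 1 called between RES and CON, Syt6 without CON library 65 and Emp1 without CON library 68, and 0 between RES and SUS. With no filter on low counts Capg, E2f2, Ly6a and Nav2 had an adjusted p under 0.05. The interaction with B cells gave 5 genes, 0 with only these cell types, 786 with libraries 52 and 70 kept, and 5 to 12 without 1 library. That with Ly6C-high monocytes gave 173, 4, 457 and 74 to 447 in the same order. Over the other results, 2195 values kept their direction and side of the threshold, 23 passed it only under the alternative, 8 lost it and 46 changed sign; the cause was not tested. With library 70 kept, log2 fold changes that changed sign were Il4ra 0.14, Cd8a -0.23 and Gem 0.47, the RES minus CON difference in the Gm23935 and Gm26917 share was 3.35 percentage points and that in genes with a count -178.3, and with libraries 52 and 70 kept the Rora difference between T and B cells was -2.32. The libraries with more Lyz2 gave Gzmm -0.33, Ctsw -0.055, Per1 -0.072 and Cd8a -0.087, those with less gave Nr3c1 0.018, Il4ra 0.0067, Lck 0.11, Cd3g 0.028 and Ppp2cb 0.15, and the Lyz2 term gave Ppp2cb 0.0029. Without 1 library the fold changes that changed sign ranged from -0.13 to 0.0017 for Nr3c1, -0.022 to 0.17 for Per1, -0.10 to 0.00057 for Cd3g, -0.045 to 0.097 for Cd8a, -0.092 to 0.030 for Cd3e, -0.067 to 0.062 for Ppp2cb and -0.26 to 0.71 for Gem, and the differences in counts per library from -2768200 to 1594200, in the Gm23935 and Gm26917 share from -4.28 to 2.59 percentage points and in genes with a count from -306 to 662. Depth limits genes with few counts in a library, such as Mmp8 and Ccl4. Libraries could not be paired, since the labels name no mouse and the replicate numbers are the library numbers.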
